A study of Mus musculus with 7 samples.

Results

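The 10 genes described here encode the FOS and JUN subunits of the transcription factor AP-1 (Fos, Fosb, Fosl1, Fosl2, Jun, Junb and Jund), the related basic leucine zipper factor Atf3, and Egr1 and Ier2, 2 further products of the immediate early response. They were listed by name, by a rule that uses no measured value but was written with earlier results of these data known, and all 10 were found among the 55423 features of the count table and passed the filter on low counts, which kept 24433 features. Bulk RNA was sequenced from skin tumours of mice with cutaneous squamous cell carcinoma (cSCC), and 6 tumours were used, 3 of each genotype. In Ivl:BRAFV600E mice, a tamoxifen-inducible Cre recombinase under the promoter of involucrin, a gene of keratinocytes committed to differentiation, switched on the BRAFV600E oncogene. Ivl:BRAFV600E-SOX2LSL mice carried the same Cre and the same oncogene, and in addition a Rosa26 allele behind a stop cassette from which SOX2 and eGFP were expressed after recombination. In both genotypes, tamoxifen was painted on the skin at an age of 7 to 10 weeks and tumours were left to reach the clinical endpoint. No tumour without BRAFV600E and no normal skin was analysed here. Every Ivl:BRAFV600E-SOX2LSL tumour was collected sooner after induction than every Ivl:BRAFV600E tumour, so genotype and time since induction cannot be told apart.

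AP-1 is a dimer. A JUN protein pairs with another JUN protein or with a FOS protein through the leucine zipper, whereas FOS proteins need a JUN partner to bind DNA, and the subunits differ in how strongly they activate transcription. Immediate early genes are transcribed within minutes of a growth factor or stress signal without new protein synthesis, and ERK, the kinase at the end of the MAP kinase cascade that BRAFV600E drives, is a main route to them. In epidermis, AP-1 subunits take part both in proliferation and in the programme of terminal differentiation, and Fos and Jun have long been linked to skin carcinogenesis in mice.

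All 10 genes had lower mean CPM (counts per 1 M, with library sizes scaled by TMM) in the Ivl:BRAFV600E-SOX2LSL tumours. The largest differences were those of Fos, Jun and Egr1, whose means stood at 0.39, 0.50 and 0.50 times those of the Ivl:BRAFV600E tumours, and the smallest were those of Fosl2 and Junb, with ratios of 0.84 and 0.85. The edgeR quasi-likelihood test over all 24433 genes called 0 of the 10 at an adjusted p below 0.05, where it called 954 genes, 3.9% of those tested, 1.51% as lower and 2.39% as higher. Adjusted p-values of the 10 ranged from 0.0565 for Ier2 to 0.672 for Atf3. At an unadjusted p below 0.05, the same test found 6 of the 10 lower (Fos, Fosl1, Jun, Jund, Egr1 and Ier2), against 11.2% of all genes tested. This count was 3 with sex as a covariate (2 females and 1 male in the Ivl:BRAFV600E group, 1 female and 2 males in the other), 3 without Ivl:BRAFV600E tumour 1, and 4 to 6 without each of the other tumours. Under DESeq2, 4 were called lower (Fos, Jun, Egr1 and Ier2), against 7.76% of the 20046 genes for which it gave an adjusted p, and under limma voom 4 as well (Fosl1, Jun, Egr1 and Ier2), against 3.97%. In 5 of the 10 (Fosl2, Jun, Jund, Egr1 and Ier2) every Ivl:BRAFV600E-SOX2LSL tumour lay below every Ivl:BRAFV600E tumour, as it did in 16% of all genes. The log2 fold change was below 0 in 10 of 10 against 47.2% of all genes, and its median was -0.58 over the 10 against 0.04 over all genes, of which 19.1% lay below -0.58.

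**Figure D1:**
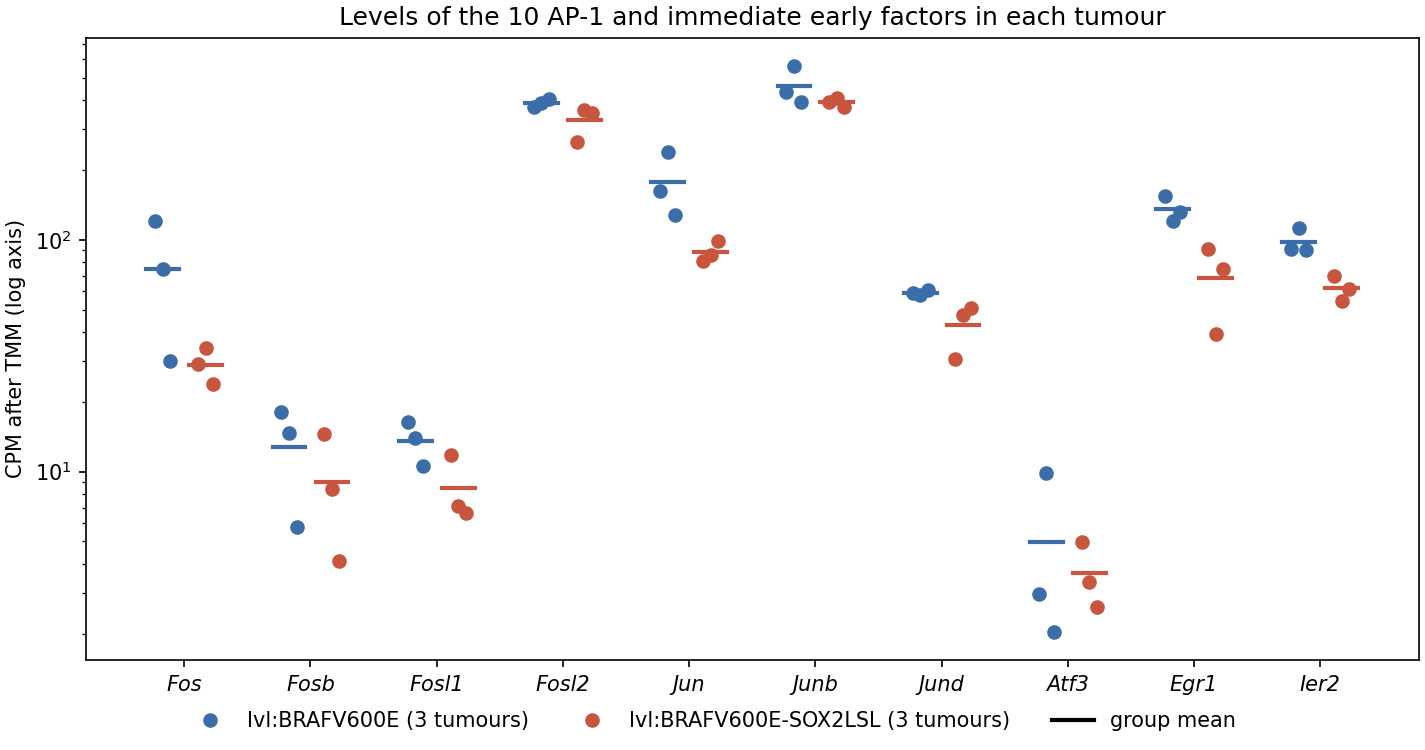
The CPM of each of the 10 genes on a log axis, with 1 point for each tumour and a line at the mean of the 3 tumours of a genotype. The groups lie apart for Fosl2, Jun, Jund, Egr1 and Ier2, and the Ivl:BRAFV600E values of Fos reach from 29.9 to 120 CPM.

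The tumours themselves matched their genotype. Sox2 had 0.716, 0.508 and 0.238 CPM in the Ivl:BRAFV600E tumours and 182, 155 and 158 CPM in the Ivl:BRAFV600E-SOX2LSL tumours (log2 fold change 8.35, standard error 0.34, edgeR adjusted p = 0.000807), and the eGFP sequence had 0 counts in the former. Total counts on genes lay between 23565432 and 31152826, and 3 counts, taken as the smallest level that can be told from 0, corresponded to 0.0839 to 0.143 CPM, for counting error only. Even the rarest of the 10, Atf3, had 43 to 214 counts per tumour. A separate culture or animal is not named in the labels for each sample, but the columns carry mouse names, and the p-values measure the spread between these tumours. The defining keratinocyte markers Krt5 and Trp63 were present in every tumour.

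Markers of several cell types differed in summed level between the genotypes. The summed level of 6 markers of differentiated keratinocytes (Krt1, Krt10, Ivl, Lor, Flg and Dsg1a, none at 0) was 77800 to 92600 CPM in the Ivl:BRAFV600E tumours and 2520 to 25800 CPM in the Ivl:BRAFV600E-SOX2LSL tumours, with 1 of 6 called lower by edgeR. Of 11 tested skeletal muscle markers 10 were called higher, and their sum was 4.11 to 7.89 CPM against 288 to 1260 CPM, with 1 of 12 markers at 0 in all Ivl:BRAFV600E tumours. The sum of 6 macrophage markers (none at 0) was 50.7 to 99 CPM against 136 to 413 CPM, with 1 called higher. The 6 basal keratinocyte, 6 fibroblast, 6 neutrophil and 6 endothelial markers had no called gene and sums of 17800 to 35900, 726 to 5030, 333 to 1210 and 155 to 170 CPM against 12700 to 27700, 3890 to 8180, 387 to 1960 and 158 to 192 CPM. T cell, melanocyte and adipocyte markers also had no called gene, with sums that stayed at or below 88.8 CPM and 1 adipocyte marker at 0 in all Ivl:BRAFV600E tumours. In bulk RNA, fewer cells of a type and less RNA per cell cannot be told apart, and the part of these markers in the results below was not tested. With the skeletal muscle markers removed before scaling, edgeR again called 0 of the 10. Only the marker genes were taken out, so this fit concerns scaling and cannot test reads of the 10 genes from muscle cells.

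The promoter sequences of Fos, Fosb, Jun and Junb are shown because promoters are where growth factor signals and AP-1 itself are known to act on such genes, and because their RefSeq start lies within 30 bases of the start in GENCODE. The RefSeq promoter table (GRCm38.p6, 250 bases before to 50 after the start) held 7 of the 10 genes, namely these 4 with Fosl2, Jund and Atf3, and did not match Fosl1, Egr1 and Ier2. Each is printed 5′ to 3′ on the strand of the gene, with the short CRE motif TGACG, the CRE-like site TGANNTCA and the EGR site GCGNGGGCG in capitals on either strand.
Fos, chr12:85473640-85473939, plus strand: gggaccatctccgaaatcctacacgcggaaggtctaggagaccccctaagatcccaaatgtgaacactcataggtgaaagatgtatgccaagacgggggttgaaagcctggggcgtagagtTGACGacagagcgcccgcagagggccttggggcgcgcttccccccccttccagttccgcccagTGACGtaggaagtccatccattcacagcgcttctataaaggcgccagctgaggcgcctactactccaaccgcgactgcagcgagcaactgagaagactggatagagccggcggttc
Fosb, chr7:19309996-19310295, minus strand: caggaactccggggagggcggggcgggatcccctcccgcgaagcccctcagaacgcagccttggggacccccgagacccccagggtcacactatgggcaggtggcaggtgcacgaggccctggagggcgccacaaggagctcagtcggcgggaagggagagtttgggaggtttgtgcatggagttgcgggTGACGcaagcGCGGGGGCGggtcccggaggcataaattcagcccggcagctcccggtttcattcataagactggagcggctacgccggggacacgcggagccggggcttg
Jun, chr4:95052173-95052472, minus strand: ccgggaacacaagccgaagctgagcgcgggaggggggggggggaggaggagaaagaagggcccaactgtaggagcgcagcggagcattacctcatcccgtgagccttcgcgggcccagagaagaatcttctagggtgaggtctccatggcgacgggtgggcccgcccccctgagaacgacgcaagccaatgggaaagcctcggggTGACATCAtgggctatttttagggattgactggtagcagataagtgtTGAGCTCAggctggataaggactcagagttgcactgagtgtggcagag
Junb, chr8:84978699-84978998, minus strand: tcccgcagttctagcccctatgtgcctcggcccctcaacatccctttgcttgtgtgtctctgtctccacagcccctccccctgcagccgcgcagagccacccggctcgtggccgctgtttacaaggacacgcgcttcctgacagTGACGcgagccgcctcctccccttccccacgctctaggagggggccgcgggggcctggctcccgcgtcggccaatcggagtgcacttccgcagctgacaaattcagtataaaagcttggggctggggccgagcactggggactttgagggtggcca

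Counted from the RefSeq start, Fos held TGACG at -129 and at -66 and a TATA box (TATAAA) at -33. Fosb held TGACG at -60 and the EGR letters GCGGGGGCG at -50. Jun held 2 CRE-like matches, TGACATCA at -45 and TGAGCTCA at 3, and Junb held TGACG at -106 and TATAAA at 1. This RefSeq start of Junb lay 30 bases upstream of its GENCODE start. Of the other promoters matched, Fosl2 held the EGR letters at -79, Jund the CRE-like TGAAATCA at -61 and the SOX core ACAATG at 7, and Atf3 the short CRE motif on the opposite strand at -7, although the RefSeq starts of Fosl2, Jund and Atf3 lay 671, 1210 and 34706 bases from the GENCODE start. Among all 32851 promoters of the table, 20.8% held TGACG, 14.1% TGANNTCA, 5.55% GCGNGGGCG, 12.6% ACAATG and 13.6% TATAAA. The AP-1 site TGANTCA (7.81% of all promoters) and the CArG box (1.63%), the letters bound by serum response factor, were in 0 of the 7 windows. These are matches of letters on both strands, and a motif can overlap another. Bases more than 250 before or 50 after the RefSeq start were not searched, nor were Fosl1, Egr1 and Ier2.

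Fos, the founding member of its family and a classical immediate early gene (ENSMUSG00000021250, GRCm38 chromosome 12, 85473890 to 85477273, plus strand), was measured at 120, 74.7 and 29.9 CPM in Ivl:BRAFV600E tumours 1, 2 and 3 and 29.0, 34.0 and 23.8 CPM in the Ivl:BRAFV600E-SOX2LSL tumours. The Ivl:BRAFV600E tumours were spread over a 4.03-fold range, tumour 1 being highest, and tumour 3 fell within the range of the other genotype. Its log2 fold change was -1.37 (standard error 0.45, 95% interval -2.43 to -0.32), the largest in size of the 10 in this fit, and the edgeR adjusted p was 0.119. DESeq2 called it with an adjusted p of 0.0211, while limma voom did not (0.15). Without Ivl:BRAFV600E tumour 1 the log2 fold change was -0.86 and the edgeR adjusted p 0.308. Jun (-1.05) and Egr1 (-0.89) then had larger differences than Fos, as Egr1 had under limma voom (-1.34 against -1.26).

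Fosb, which resembles Fos and also carries a transactivation domain, lies on chromosome 7 (ENSMUSG00000003545, 19302696 to 19310051, minus strand). Its level was 18.0, 14.7 and 5.75 CPM in the Ivl:BRAFV600E tumours and 14.5, 8.45 and 4.12 CPM in the Ivl:BRAFV600E-SOX2LSL tumours. Both genotypes showed a spread of more than 3-fold (3.14 and 3.53 between the highest and the lowest tumour), and their ranges overlapped between 5.75 and 14.5 CPM. For Fosb the log2 fold change was -0.51 with a 95% interval from -1.77 to 0.76 (edgeR adjusted p = 0.586), which includes 0, and with a tumour left out it ran from -1.03 (without Ivl:BRAFV600E-SOX2LSL tumour 1) to -0.16 (without tumour 3 of that genotype).

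Fosl1 encodes FRA-1, a FOS protein that lacks the transactivation domain and is often high in invasive carcinoma cells (ENSMUSG00000024912, chromosome 19, 5447547 to 5455946, plus strand). It had 16.3, 13.9 and 10.6 CPM in the Ivl:BRAFV600E tumours and 11.8, 7.13 and 6.61 CPM in the Ivl:BRAFV600E-SOX2LSL tumours. Only Ivl:BRAFV600E-SOX2LSL tumour 1 reached into the other range. Between the genotypes the log2 fold change was -0.67 (standard error 0.28, 95% interval -1.33 to -0.01), with an adjusted p of 0.187 by edgeR, 0.129 by DESeq2 and 0.0492 by limma voom. Without Ivl:BRAFV600E-SOX2LSL tumour 1 edgeR called it (log2 fold change -0.99, adjusted p = 0.0455). Of its 2033 exonic bases, 1163 are shared with Ccdc85b on the opposite strand, which had 14.8, 10.9 and 10.3 CPM against 8.31, 7.16 and 8.45 CPM (log2 fold change -0.59, adjusted p = 0.128). The sources used here do not give the strand setting of the counting, so the reads of the 2 genes cannot be told apart there.

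Fosl2 encodes FRA-2, a FOS protein expressed in the differentiated layers of the epidermis (ENSMUSG00000029135, chromosome 5, 32135801 to 32157842, plus strand). Its level was 372, 390 and 403 CPM in the Ivl:BRAFV600E tumours and 265, 364 and 353 CPM in the Ivl:BRAFV600E-SOX2LSL tumours. The groups did not overlap, but the gap between 364 and 372 CPM was narrow, and tumour 1 of the Ivl:BRAFV600E-SOX2LSL genotype stood below the other two. Its log2 fold change was -0.25 (standard error 0.16, 95% interval -0.62 to 0.13, edgeR adjusted p = 0.365), and -0.12 without that tumour.

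Jun, the archetypal partner of FOS proteins and a gene that AP-1 itself is known to induce, is a single-exon gene on chromosome 4 (ENSMUSG00000052684, 95049034 to 95052222, minus strand). It had 162, 240 and 128 CPM in the Ivl:BRAFV600E tumours and 80.9, 86.3 and 99.0 CPM in the Ivl:BRAFV600E-SOX2LSL tumours. All 3 Ivl:BRAFV600E-SOX2LSL tumours lay close together and below the lowest Ivl:BRAFV600E tumour. On the log2 scale the fold change was -0.99 (standard error 0.24, 95% interval -1.55 to -0.44) with an edgeR adjusted p of 0.062, just above the threshold. It was called by DESeq2 (adjusted p = 0.00359), by limma voom (0.0428) and by edgeR with no filter on low counts (0.0344). Without Ivl:BRAFV600E tumour 2, the highest, the log2 fold change was -0.71 (edgeR adjusted p = 0.135). Its antisense neighbour Junos, with 232 shared exonic bases, had 3.79, 3.05 and 3.33 CPM against 6.13, 2.07 and 2.35 CPM (log2 fold change 0.06). Ivl:BRAFV600E-SOX2LSL tumour 1 was its highest, and the other tumours of that genotype lay below every Ivl:BRAFV600E tumour.

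Junb, a JUN protein with weaker transactivation that restrains keratinocyte and myeloid growth in mice (ENSMUSG00000052837, chromosome 8, 84974484 to 84978718, minus strand), had 433, 561 and 392 CPM in the Ivl:BRAFV600E tumours and 393, 410 and 372 CPM in the Ivl:BRAFV600E-SOX2LSL tumours. Ivl:BRAFV600E tumour 2 stood above the rest, and the other 5 tumours fell between 372 and 433 CPM. For Junb the log2 fold change was -0.24 (standard error 0.17, 95% interval -0.64 to 0.16, edgeR adjusted p = 0.404), and it was -0.08 without that tumour. It shares 173 exonic bases with Prdx2 on the opposite strand, whose log2 fold change was 0.11.

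Jund, the JUN gene with the steadiest expression in most tissues (ENSMUSG00000071076, chromosome 8, 70698949 to 70700616, plus strand), was steady at 59.0, 57.7 and 60.5 CPM in the Ivl:BRAFV600E tumours, a coefficient of variation of 2.37%. In the Ivl:BRAFV600E-SOX2LSL tumours it had 30.5, 47.3 and 50.7 CPM. All 3 lay below the other genotype, tumour 1 by the widest margin. For Jund it was -0.46 on the log2 scale (standard error 0.20, 95% interval -0.92 to -0.0036), and no tool called it (adjusted p of 0.192 by edgeR, 0.161 by DESeq2 and 0.156 by limma voom). Without Ivl:BRAFV600E-SOX2LSL tumour 1 it was -0.27. The antisense gene Gm11175, with 877 shared exonic bases, had 0 counts in every tumour.

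Atf3, a stress-induced factor that can pair with JUN proteins (ENSMUSG00000026628, chromosome 1, 191170296 to 191218039, minus strand), was low, with 2.97, 9.89 and 2.04 CPM in the Ivl:BRAFV600E tumours and 4.98, 3.34 and 2.60 CPM in the Ivl:BRAFV600E-SOX2LSL tumours. A single tumour, Ivl:BRAFV600E tumour 2, carried the higher mean of its genotype, and the remaining values overlapped. Its log2 fold change was -0.44 with a 95% interval of -1.84 to 0.95 (edgeR adjusted p = 0.672), and without that tumour it was 0.54 (adjusted p = 0.477). Atf3 was the only one of the 10 whose direction turned in any fit.

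Egr1, a zinc finger factor induced through ERK and serum response factor (ENSMUSG00000038418, chromosome 18, 34859823 to 34864984, plus strand), reached 154, 121 and 132 CPM in the Ivl:BRAFV600E tumours and 91.0, 39.1 and 75.0 CPM in the Ivl:BRAFV600E-SOX2LSL tumours. The groups did not overlap, and Ivl:BRAFV600E-SOX2LSL tumour 2 was lowest. The log2 fold change was -0.99 (standard error 0.29, 95% interval -1.68 to -0.30, edgeR adjusted p = 0.0999). DESeq2 and limma voom called it with adjusted p-values of 0.0204 and 0.0268, and edgeR did so without Ivl:BRAFV600E-SOX2LSL tumour 1 (log2 fold change -1.25, adjusted p = 0.0424).

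Ier2, an immediate early nuclear protein without a DNA-binding domain of the AP-1 kind (ENSMUSG00000053560, chromosome 8, 84661331 to 84662852, minus strand), had 90.9, 112 and 89.9 CPM in the Ivl:BRAFV600E tumours and 69.5, 54.5 and 61.3 CPM in the Ivl:BRAFV600E-SOX2LSL tumours. Both genotypes were tight, with coefficients of variation of 12.5% and 12.1%, and did not overlap. The log2 fold change was -0.66 (standard error 0.15, 95% interval -1.01 to -0.31), and the edgeR adjusted p of 0.0565 was the lowest of the 10. It was called by DESeq2 (0.00463), by limma voom (0.0214), and by edgeR with upper-quartile scaling (0.0365), with no filter (0.0464), with filterByExpr (0.0444) and without Ivl:BRAFV600E-SOX2LSL tumour 1 (0.0254). With sex as a covariate the edgeR adjusted p was 0.146. For each single gene, an exact two-sided permutation test of 3 against 3 tumours cannot go below p = 0.1.

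**Figure D2:**
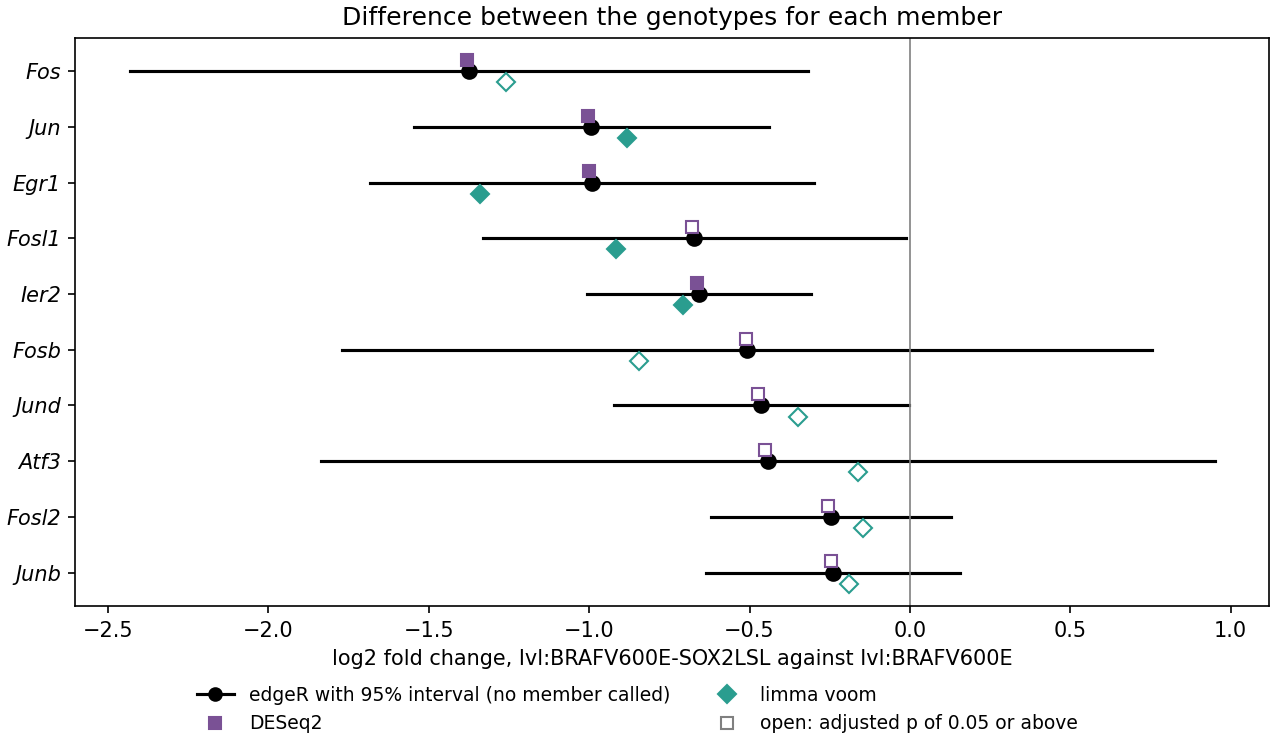
The log2 fold change of Ivl:BRAFV600E-SOX2LSL against Ivl:BRAFV600E tumours for each of the 10 genes, with the edgeR estimate and its 95% interval in black and the DESeq2 and limma voom estimates as squares and diamonds, filled where the adjusted p was below 0.05. All estimates lie below 0, from -1.37 for Fos to -0.24 for Junb by edgeR, and the intervals of Fosb, Atf3, Fosl2 and Junb cross 0.

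The 10 genes did not share a single order of the tumours. Each gene was centred on its mean log2 CPM over the 6 tumours, and the mean of the 10 was 0.44, 0.58 and -0.09 in Ivl:BRAFV600E tumours 1, 2 and 3 and -0.14, -0.36 and -0.43 in the Ivl:BRAFV600E-SOX2LSL tumours. The highest tumour was Ivl:BRAFV600E tumour 1 for 4 genes (Fos, Fosb, Fosl1 and Egr1), tumour 2 for 4 (Jun, Junb, Atf3 and Ier2) and tumour 3 for 2 (Fosl2 and Jund), and an Ivl:BRAFV600E-SOX2LSL tumour for 0. In Ivl:BRAFV600E tumour 3, 4 genes (Fos, Fosb, Junb and Atf3) were below their own mean, Fos by 0.52 and Fosb by 0.73. The lowest values were spread over the 3 Ivl:BRAFV600E-SOX2LSL tumours with 3, 2 and 4 genes, and Atf3 was lowest in Ivl:BRAFV600E tumour 3.

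**Figure D3:**
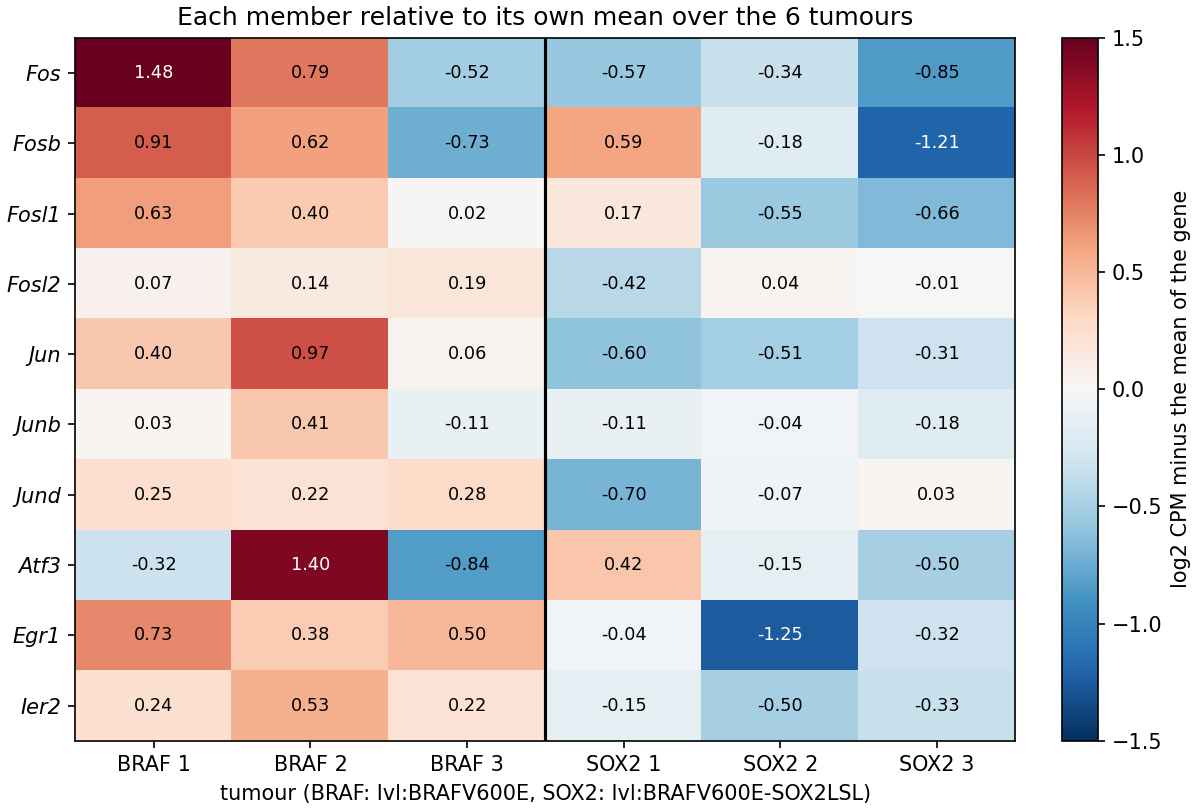
Log2 CPM of each gene minus its mean over the 6 tumours, with genes in rows, tumours in columns and a line between the genotypes. Fos ranges from 1.48 in Ivl:BRAFV600E tumour 1 to -0.85 in Ivl:BRAFV600E-SOX2LSL tumour 3, whereas Junb and Fosl2 stay within about 0.42 of their mean.

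The genes whose centred profile over the 6 tumours was nearest were sought among 10472 tested genes with a mean of at least 5 CPM, by the root mean square difference of log2 values. For Fos these were Cidea, Dpp4, Csrnp1, Stard13 and Ppp2r2c, at differences of 0.30 to 0.39. For Fosl1 they were Mtap, Ier3, Pcdh7, Uaca and Mmd, at 0.09 to 0.15. For the mean of the 10 genes they were Yrdc, Ptprz1, AC122453.1, Dnajc15 and Utp14b, at 0.09 to 0.11. The profiles were not scaled to a common spread, and Fos varied more than Fosl1, so these differences cannot be compared between targets. Csrnp1 and Ier3 are themselves immediate early genes. These are descriptions over 6 tumours that share their genotype groups.

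Levels were compared between genes as CPM per kb of exon, the union of exons in GENCODE. Junb was the most abundant in both genotypes, with 201 ± 38.3 CPM per kb in the Ivl:BRAFV600E tumours and 170 ± 8.26 CPM per kb in the Ivl:BRAFV600E-SOX2LSL tumours (SD, n = 3), and in the mean over all tumours it stood at percentile 99.0 of 16345 coding genes tested. In the Ivl:BRAFV600E tumours it was followed by Ier2 (64.0 CPM per kb), Jun (55.4), Fosl2 (40.1), Jund (35.4), Fos (31.9), Egr1 (30.3), Fosl1 (6.68), Atf3 (2.31) and Fosb (2.06). The ranges of neighbours in this order did not overlap between Junb and Ier2, Fosl2 and Jund, Egr1 and Fosl1, and Fosl1 and Atf3, and overlapped elsewhere. In the Ivl:BRAFV600E-SOX2LSL tumours the order was Ier2 (40.6), Fosl2 (33.8), Jun (27.8), Jund (25.7), Egr1 (15.2), Fos (12.3), Fosl1 (4.19), Atf3 (1.69) and Fosb (1.45), where the neighbours that stood apart were Junb and Ier2, Fos and Fosl1, and Fosl1 and Atf3. Fosl1, Atf3 and Fosb were thus the low members in both genotypes, and Fosb stood at percentile 42.5. With the longest transcript as length, the level of Fosl2 in the Ivl:BRAFV600E tumours was 59.4 CPM per kb and that of Fosb 3.40 CPM per kb. The order then changed, with Fosl2 above Jun and Fos above Jund in the Ivl:BRAFV600E tumours, Fosl2 above Ier2 in the Ivl:BRAFV600E-SOX2LSL tumours, and Fosb above Atf3 in both.

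The make-up of the FOS and JUN transcripts differed among tumours. Per kb, Fos made up 51%, 39.1% and 21% of the summed FOS family level in Ivl:BRAFV600E tumours 1, 2 and 3 and 25.8%, 25.4% and 20% in the Ivl:BRAFV600E-SOX2LSL tumours. Fosl2 had 38.2%, 49.6% and 68.8% against 57.2%, 66.1% and 72.2%. It was the main FOS gene in 5 of 6 tumours, the exception being Ivl:BRAFV600E tumour 1, and the ranges of both genes overlapped between the genotypes. The summed level of the 4 FOS genes was 101, 81.2 and 60.6 CPM per kb against 47.9, 56.9 and 50.6 CPM per kb, which did not overlap.

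Among the JUN genes, Junb had the major share in every tumour, 68.5%, 68.9% and 69.1% in the Ivl:BRAFV600E tumours and 79.6%, 76.3% and 72.5% in the Ivl:BRAFV600E-SOX2LSL tumours. Jun had 18.6%, 21.3% and 16.2% against 11.8%, 11.6% and 13.9%. Neither the shares of Junb nor those of Jun overlapped between the genotypes, while those of Jund did, with 9.78% to 14.7% against 8.53% to 13.6%. The summed JUN level was 274, 354 and 247 CPM per kb against 214, 234 and 223 CPM per kb. These shares are of RNA, are given without a test, and do not measure dimers.

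**Figure D4:**
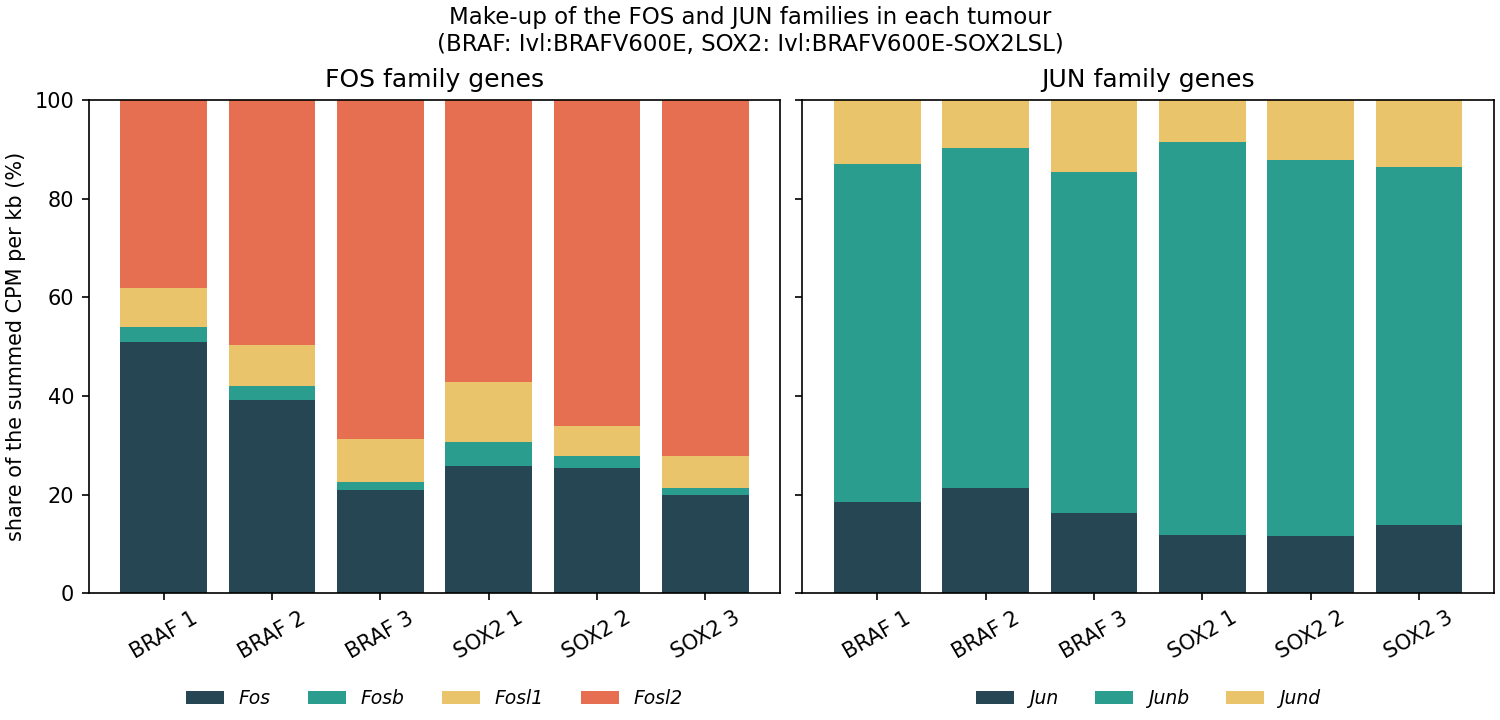
Share of each gene in the summed CPM per kb of the FOS family (left) and the JUN family (right), 1 bar for each tumour. Junb takes 68.5% to 79.6% of the JUN level, and the share of Fos runs from 20% to 51%.

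Genes related by function were taken from 4 written lists. Of 50 tested other immediate early genes, edgeR called 6 (4 lower and 2 higher), against 3.9% of all genes, 35 had a log2 fold change below 0, and the median was -0.35 against 0.04 over all genes. At an unadjusted p below 0.05, 19 were lower and 8 higher, against 11.2% and 14.5% of all genes. Arc, an activity-regulated gene best known from neurons, had 81.3, 147 and 69.2 CPM in the Ivl:BRAFV600E tumours and 10.9, 15.2 and 22.0 CPM in the Ivl:BRAFV600E-SOX2LSL tumours (log2 fold change -2.63, standard error 0.37, adjusted p = 0.0225). Dusp1, the phosphatase that switches off MAP kinases, had 159, 126 and 106 CPM against 28.3, 55.9 and 37.0 CPM (-1.69, standard error 0.27, adjusted p = 0.0283). Plk3, a stress-responsive polo-like kinase, and Btg1, an antiproliferative factor, had log2 fold changes of -1.41 and -0.90 (adjusted p = 0.0131 and 0.0391). Socs3, an inhibitor of cytokine signalling, and Arid5a, a regulator of mRNA stability, rose with log2 fold changes of 1.15 and 1.0 (adjusted p = 0.0283 and 0.0342). Egr2, the relative of Egr1, had 12.1, 3.0 and 8.17 CPM against 18.2, 14.4 and 18.0 CPM, a log2 fold change of 1.11 in the direction opposite to that of Egr1 (adjusted p = 0.175). Without Ivl:BRAFV600E tumour 2 the fold change of Egr2 was 0.73, and without tumour 1 it was 1.59.

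Among 26 tested bZIP genes that can pair with or resemble AP-1 subunits, edgeR called 2, against 3.9% of all genes, and the median log2 fold change was -0.01. Maf, a large MAF factor of keratinocyte differentiation, fell by 1.10 on the log2 scale (155, 225 and 207 CPM against 77.4, 107 and 90.4 CPM, adjusted p = 0.0317). Cebpd, a C/EBP factor of the acute phase response, rose by 2.03 (9.17, 6.98 and 10.2 CPM against 39.5, 34.3 and 33.7 CPM, adjusted p = 0.00708). The small MAF factor Maff had a log2 fold change of -1.03 (adjusted p = 0.0561), and Batf, a bZIP factor of immune cells, had 2.27 (adjusted p = 0.0619) at no more than 1.34 CPM in any tumour. Batf2 was near the level of 3 counts, with 0, 0 and 0.19 CPM against 0.504, 0.292 and 0.0722 CPM (adjusted p = 0.315).

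Of 29 tested genes of the ERK, JNK and p38 kinases and of serum response factor upstream of these promoters, edgeR called 1, the p38 gene Mapk11 (3.96, 2.49 and 2.04 CPM against 12.3, 8.23 and 8.92 CPM, log2 fold change 1.79, adjusted p = 0.0319), a share near the 3.9% of all genes, and the median was -0.10 (-0.16 to -0.04 with a tumour left out). At an unadjusted p below 0.05, 6 were lower and 3 higher, against 11.2% and 14.5% of all genes, and in 9 the groups did not overlap with the Ivl:BRAFV600E-SOX2LSL tumours lower, against 16%. The 6 became 3 with sex as a covariate, without Ivl:BRAFV600E tumour 1 or 2, and without Ivl:BRAFV600E-SOX2LSL tumour 3. Mapk3, which encodes ERK1, had 177, 216 and 198 CPM against 88.4, 142 and 125 CPM (-0.73, adjusted p = 0.078). Rps6ka2, an ERK-activated kinase, had a value of 0.68 (adjusted p = 0.342), which ran from 0.28 without Ivl:BRAFV600E-SOX2LSL tumour 1 to 1.14 without Ivl:BRAFV600E tumour 2. These are transcript levels and say nothing of kinase activity.

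Of 40 tested genes commonly listed as AP-1 targets, edgeR called 6 (4 higher and 2 lower), against 3.9% of all genes, and the median log2 fold change was 0.83 against 0.04. At an unadjusted p below 0.05, 15 were higher and 4 lower, against 14.5% and 11.2% of all genes, the lower share being near that background. This median rested on Ivl:BRAFV600E-SOX2LSL tumour 1: without it the median was 0.08, 20 of the 40 genes lay below 0 (13 with all tumours), and 12 were higher and 7 lower at an unadjusted p below 0.05. Without each of the other tumours the median was 0.70 to 0.98, and with limma voom it was 0.52. The 15 higher genes became 9 with sex as a covariate and 9 without Ivl:BRAFV600E tumour 3. The called genes that rose were Timp1, an inhibitor of matrix metalloproteinases (2.54, adjusted p = 0.0434), Odc1, the first enzyme of polyamine synthesis (2.35, adjusted p = 0.0238), Plau, the urokinase (1.07, adjusted p = 0.0206), and Lamb3, a chain of laminin-332 (1.06, adjusted p = 0.0491). Both called genes that fell encode cornified envelope proteins, Sprr1a with 2290, 3140 and 1790 CPM against 466, 743 and 654 CPM (-1.95, adjusted p = 0.0238) and Sprr1b with a log2 fold change of -2.31 (adjusted p = 0.035). Loricrin, Lor, another envelope protein, had -2.49 (adjusted p = 0.0648). The matrix metalloproteinase Mmp9 had 8.53, 28.3 and 13.4 CPM against 287, 29.2 and 57.6 CPM (2.90, adjusted p = 0.106), and the cell cycle inhibitor Cdkn2a had 1.16, 4.06 and 0.998 CPM against 33.3, 1.07 and 3.68 CPM (2.62, adjusted p = 0.228). Both were far highest in Ivl:BRAFV600E-SOX2LSL tumour 1, without which their log2 fold changes were 1.38 and 0.20. The list thus held genes of both directions, and Sprr1a and Sprr1b fell beside the lower sum of differentiated keratinocyte markers given above, whose part was not tested. Lor, Ivl and Flg are in both lists. Of the 15 genes called in these 4 lists, none stayed called without Ivl:BRAFV600E tumour 1 (adjusted p of 0.0726 to 0.185), 1 without Ivl:BRAFV600E tumour 2, 5 without tumour 3, 3 without Ivl:BRAFV600E-SOX2LSL tumour 2 and 5 without tumour 3, all 15 did without Ivl:BRAFV600E-SOX2LSL tumour 1, and none changed direction. With sex as a covariate 5 of the 15 (Cebpd, Plk3, Arc, Timp1 and Plau) stayed called, and the call of Lamb3 was also lost with upper-quartile scaling (adjusted p = 0.0514) and with the size factors of DESeq2 in edgeR (0.0503).

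**Figure D5:**
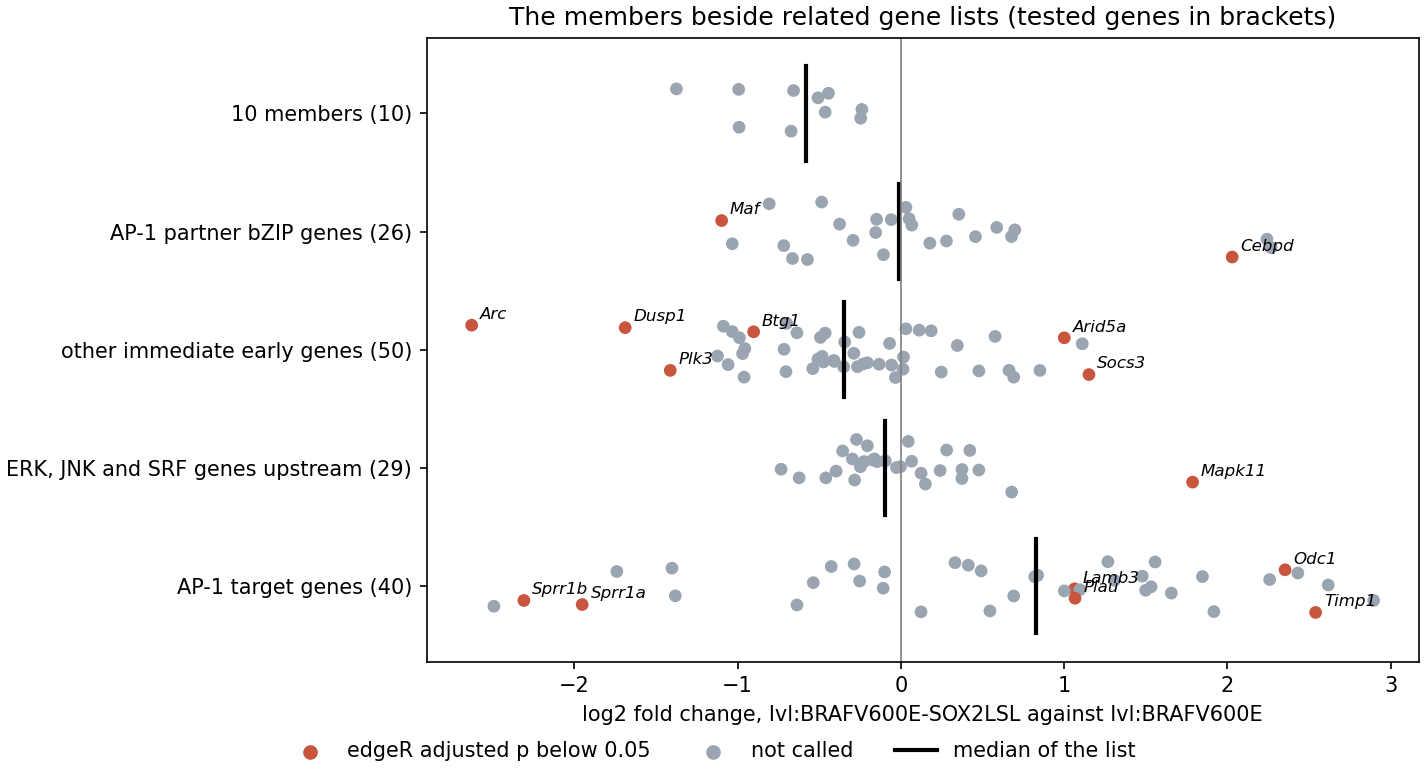
The log2 fold change of the 10 genes and of the tested genes of 4 related lists, 1 point for each gene, in red where the edgeR adjusted p was below 0.05, with a line at the median of each list. The medians are -0.58, -0.01, -0.35, -0.10 and 0.83 from top to bottom, the last being 0.08 without Ivl:BRAFV600E-SOX2LSL tumour 1.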

How the data were processed

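Bulk tumour RNA was sequenced after depletion of ribosomal RNA (paired reads of 150 bases). The authors used FastQC 0.11.8 for quality, TrimGalore for trimming, HISAT2 2.1.0 for alignment to GRCm38 and featureCounts (Subread 1.6.3) for counting per gene, and deposited raw counts, without normalisation, filtering or pooling. Strand and multimapping settings are not given in the sources used here. Of 7 columns, 6 were assigned to a genotype by mouse name, 3 per group, and 1 was not used, because its group was uncertain. The labels describe 7 samples, 4 Ivl:BRAFV600E and 3 Ivl:BRAFV600E-SOX2LSL.

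Features reaching 5 reads in 1 tumour or more entered the test. They were scaled by TMM and compared by the quasi-likelihood test of edgeR 4.0.16 (R 4.3.3), with Benjamini-Hochberg adjustment over 24433 features at 0.05. CPM (per 1 M counts) use the TMM library sizes, and a prior count of 2 was added for log2 CPM. Standard errors were derived from the fold change and F. Positions and exon lengths are those of GENCODE M21 and promoters those of RefSeq, read in Python 3.11.15 (pandas 2.3.3, figures by matplotlib 3.10.9). The alternatives were DESeq2 1.42.0, limma 3.58.1 (voom with sample weights), other scalings and filters, a sex covariate, removal of skeletal muscle markers, each tumour left out and, added after seeing the data, removal of the 10 genes with most counts. Scripts were tested on simulated data. The members, lists and tests were chosen with earlier results of these data known. Named genes are the 10 members, from each list the called genes and the 2 highest and 2 lowest log2 fold changes, the 5 nearest profiles, Sox2 and eGFP. A result under this rule is not reported here. Overlapping neighbours, Krt5 and Trp63 were named in addition.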

Additional observations from a re-analysis of the deposited data

How the results depend on the processing

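The number of genes called by edgeR, 954, was 3653 with DESeq2, 2142 with limma voom, 1759 with no filter and 228 with sex as a covariate, and leaving out each tumour in turn gave 22 to 1575 genes. Of the 10 AP-1 and immediate early genes, 0 were called by edgeR, 4 by DESeq2 (18.2% of all genes in either direction), 4 by limma voom (8.77%), 1 with upper-quartile scaling (3.99%), 2 with no filter (Jun and Ier2, 5.24%), 1 with filterByExpr (7.37%), and 3 at an adjusted p below 0.1 (11.6%), and leaving out each tumour gave 0 to 3, the 3 being without Ivl:BRAFV600E-SOX2LSL tumour 1 (6.69%). At an unadjusted p below 0.05, 6 of the 10 became 3 with sex as a covariate and 3 to 6 with a tumour left out. Upper-quartile scaling moved the median over all genes (log2 fold change) from 0.04 to -0.06 and the share of higher genes among those called from 61.3% to 52.2%, and this share was 70.6% with the sex covariate. The called bZIP genes, 2 by edgeR, were 5 with DESeq2, 4 with limma voom, 4 with filterByExpr, 1 with sex and 0 to 2 with a tumour left out. The other immediate early genes called, 6 by edgeR, were 17, 14 and 12 with DESeq2, limma voom and no filter, 2 with sex and 0 to 14 with a tumour left out. The upstream genes called, 1 by edgeR, were 3 with DESeq2, 4 with limma voom, 0 with sex and 0 to 3 with a tumour left out. The AP-1 targets called, 6 by edgeR, were 17 with DESeq2, 2 with sex and 0 to 8 with a tumour left out, and their median log2 fold change, 0.83, was 0.08 without Ivl:BRAFV600E-SOX2LSL tumour 1. Of 150 log2 fold changes of the 10 genes under other settings, 149 were below 0 and 1 turned, that of Atf3, which ran from -0.814 to 0.535 with a tumour left out and was 0.535 without Ivl:BRAFV600E tumour 2. Fewer samples are part of each fit without a tumour, and for the rest the cause was not tested. No paired analysis was possible because the columns used name different mice, each of a single genotype. Batf and Batf2 lay near the level of 3 counts in the Ivl:BRAFV600E tumours.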

Other observations

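Ivl:BRAFV600E tumour 2, the one with the highest Atf3, also stood apart from the other tumours of its genotype in a few inflammatory genes of the lists, which were picked after their values were seen. Il1b had 3.24, 36.6 and 6.70 CPM in Ivl:BRAFV600E tumours 1, 2 and 3 and 33.2, 36.0 and 30.0 CPM in the Ivl:BRAFV600E-SOX2LSL tumours. Ptgs2, the inducible cyclooxygenase, had 21.3, 88.0 and 16.3 CPM against 43.1, 48.7 and 17.1 CPM. Plaur, the urokinase receptor, had 3.72, 14.0 and 4.85 CPM against 42.9, 15.4 and 12.5 CPM, and the macrophage elastase Mmp12 had 1.06, 21.2 and 2.28 CPM against 54.6, 2.43 and 3.43 CPM. None of these 4 genes was called between the genotypes by edgeR (adjusted p of 0.408, 0.876, 0.164 and 0.6). Of the other inflammatory genes in these lists, Il6 and Ccl2 went the other way. In Ivl:BRAFV600E tumours 1, 2 and 3 they had 0.375, 0.277 and 0.57 CPM and 3.68, 0.693 and 1.66 CPM, lowest in tumour 2.

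Klf4, a factor of both the immediate early response and the differentiated epidermis, had 1200, 1360 and 1040 CPM in the Ivl:BRAFV600E tumours and 231, 755 and 707 CPM in the Ivl:BRAFV600E-SOX2LSL tumours, a log2 fold change of -1.09 (edgeR adjusted p = 0.16) with no overlap between the groups. It was also picked after its values were seen.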
